A study of Mus musculus with 15 samples.

Results

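The 8 genes described here encode the V1 sector of the vacuolar ATPase, the proton pump of the lysosome, and all 8 had a line among the 13834 genes of the deposited expression table. They were chosen by name: Atp6v1a, Atp6v1b2, Atp6v1c1, Atp6v1d, Atp6v1e1, Atp6v1f, Atp6v1g1 and Atp6v1h. RNA was sequenced from microglia, the resident macrophages of the brain, sorted from mice by flow cytometry. PLX5622 libraries (n = 4) came from 18-month-old mice treated with PLX5622, which inhibits the CSF1 receptor on which microglia depend for survival. AF-high (n = 5) and AF-low (n = 3) libraries came from untreated mice of that age, sorted for high or low autofluorescence, a property of old microglia commonly ascribed to undegraded material in lysosomes. Young libraries (n = 3) came from untreated 3-month-old mice. Strain, sex, the dose and schedule of PLX5622, and the autofluorescence gate of the PLX5622 and young cells were not given in the sources used here. Treatment and gate therefore cannot be told apart between PLX5622 and the gated groups, nor can age and gate between the gated groups and young. Nor is it stated whether a library came from 1 animal or a pool, so the p-values speak of the spread among libraries, which may in part be technical.

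The vacuolar ATPase is a rotary machine. Its cytosolic V1 sector splits ATP and turns a central rotor, and its membrane-bound V0 sector carries protons into the lysosome, where the low pH activates cathepsins and other hydrolases. V1 can come off V0 and rejoin it, which switches the pump off and on. Microglia depend on this pump to digest what they engulf. The pump also helps to signal nutrient state from the lysosome to the kinase mTORC1, and many of its genes are known targets of the transcription factor TFEB and its relatives, which bind DNA at E-boxes.

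No V1 subunit gene passed the test in any of the 6 comparisons between groups (limma on log2(TPM + 1), 0 of 48 tests at an adjusted p under 0.05 and 6 at an unadjusted p under 0.05). Of all genes tested, 0% to 0.63% were called per comparison. Levels are in TPM, transcript abundances that are scaled by transcript length and to a like total in each library, so genes can be set side by side. Their depth in reads is unknown. The gene nearest to the threshold was Atp6v1a, the catalytic subunit, whose transcript was lower in PLX5622 than in AF-high microglia by 0.69 ± 0.18 on the log2(TPM + 1) scale (SE, adjusted p = 0.0829). All 8 genes passed the filter on low values and were among 13175 genes tested.

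RefSeq promoter windows of 250 bases before to 50 after the start (GRCm38.p6) were at hand for 4 of the 8 genes, Atp6v1a, Atp6v1d, Atp6v1e1 and Atp6v1f. The windows of Atp6v1a and Atp6v1f are shown because the transcripts of these genes had the lowest p-value and the widest scatter among the 8. Capitals mark the extended E-box TCACGTGA in the Atp6v1a window (chr16:44139210-44139509, minus strand) and the GC box GGGCGG in the Atp6v1f window (chr6:29467533-29467832, plus strand).
Atp6v1a: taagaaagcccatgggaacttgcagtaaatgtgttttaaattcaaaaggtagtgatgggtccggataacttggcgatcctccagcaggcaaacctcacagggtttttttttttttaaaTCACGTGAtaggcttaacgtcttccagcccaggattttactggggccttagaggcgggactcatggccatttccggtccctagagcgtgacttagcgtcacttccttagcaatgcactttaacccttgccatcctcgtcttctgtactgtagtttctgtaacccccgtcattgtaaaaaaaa
Atp6v1f: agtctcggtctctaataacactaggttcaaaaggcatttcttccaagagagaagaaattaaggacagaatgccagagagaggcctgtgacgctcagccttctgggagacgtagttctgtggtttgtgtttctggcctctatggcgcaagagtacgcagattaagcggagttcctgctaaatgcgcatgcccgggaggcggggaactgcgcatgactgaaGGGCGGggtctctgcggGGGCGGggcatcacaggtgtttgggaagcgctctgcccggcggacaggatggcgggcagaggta
The E-box of Atp6v1a began 132 bases before the RefSeq start. That start lies inside the GENCODE M21 gene, whose 5′ end is at 44139705, so the E-box is upstream of the start in RefSeq and within the gene in GENCODE. The RefSeq start of Atp6v1f also lies inside its GENCODE gene, which begins at 29467718. TCACGTGA on either strand lay in 0.974% of all 32851 RefSeq promoter windows of this length, and its core CACGTG, which it contains, in 7.15%. Of the 4 V1 windows, 1 held either form. Both were found in the windows of the V0 genes Atp6v0d1 and Atp6v0e, and the core alone in that of Atp6v0b, among 8 V0 genes with a window. The longer CLEAR palindrome was in 0 of the 4 V1 windows and in 0.326% of all windows. GGGCGG was in 3 of the 4 V1 windows, 2 times in that of Atp6v1f, and in 35.7% of all. The ETS motif CCGGAAGT was in the Atp6v1d window and in 3.89% of all, and the NRF1 motif in the Atp6v1e1 window and in 0.971%. Motifs were sought on both strands and chosen after the windows had been read, and a match is a description of letters, not a binding site.

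The sorted cells carried the markers of their label. All 10 microglial marker genes were present, with a summed level of 6594 to 12000 TPM per library, against 4.437 to 8.67 TPM for the 3 of 8 neuronal markers with a line. Sums were 78.32 to 282.5 TPM for astrocyte markers (7 of 8 with a line) and 169.7 to 312.8 TPM for endothelial markers (4 of 8). In AF-low against young, 10 of 10 microglial markers were below 0, with a median log2 difference of -0.37 (-0.04 for all genes) and 0 called. The table holds 0 values equal to 0, so a marker with no line, such as all 6 neutrophil markers, was not analysed here and its level is unknown. Libraries differed in other ways. AF-high 2 and AF-high 3 held 5.376% and 7.657% of TPM in mitochondrially encoded transcripts, against 1.571% to 2.698% in the other 13. Young 1 and young 2 held 8768 and 5782 TPM of choroid plexus and ependymal markers, against 34.58 to 371.9 TPM elsewhere. The root mean square deviation of a library from its group mean over all genes was between 0.2493 and 0.2641 log2 units in PLX5622, 0.3642 and 0.5595 in AF-high, 0.3921 and 0.4717 in AF-low, and 0.2284 and 0.2578 in young libraries. Over the V1 genes it was between 0.1379 and 0.2014 in PLX5622, 0.2584 and 0.4492 in AF-high, 0.2096 and 0.2776 in AF-low, and 0.104 and 0.1288 in young libraries, so here too the gated old libraries scattered most.

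All 8 transcripts were well expressed, at means of 64.73 to 154.8 TPM over the 15 libraries, above at least 82.2% of the genes in the table. Atp6v1d, a rotor subunit, was highest at 154.8 ± 25.01 TPM (SD, n = 15) and was the top V1 transcript in 14 of 15 libraries. Atp6v1c1, which links the outer stalks to the membrane sector, followed at 121.8 ± 13.64 TPM and lay below Atp6v1d in 14 of 15. Next came the stalk subunit Atp6v1g1 at 99.61 ± 17.48 TPM and the nucleotide-binding subunit Atp6v1b2 at 89.74 ± 31.75 TPM. The second stalk subunit, Atp6v1e1, had 83.85 ± 15.22 TPM and was above Atp6v1b2 in most libraries (Atp6v1b2 was the higher in 6 of 15). The lowest 3 were not set apart: the rotor subunit Atp6v1f was at 68.21 ± 19.02, the regulatory subunit Atp6v1h at 66.61 ± 6.891 and Atp6v1a at 64.73 ± 18.7 TPM, with Atp6v1f above Atp6v1h in 7 of 15 libraries and Atp6v1h above Atp6v1a in 8. From the lowest to the highest of the 15 libraries, Atp6v1f varied 3.122-fold and Atp6v1a 3.085-fold, against 1.447-fold for Atp6v1c1 and 1.475-fold for Atp6v1h. Atp6v1a was the lowest of the 8 in 3 of 4 PLX5622, 0 of 5 AF-high, 1 of 3 AF-low and 3 of 3 young libraries.

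**Figure D1:**
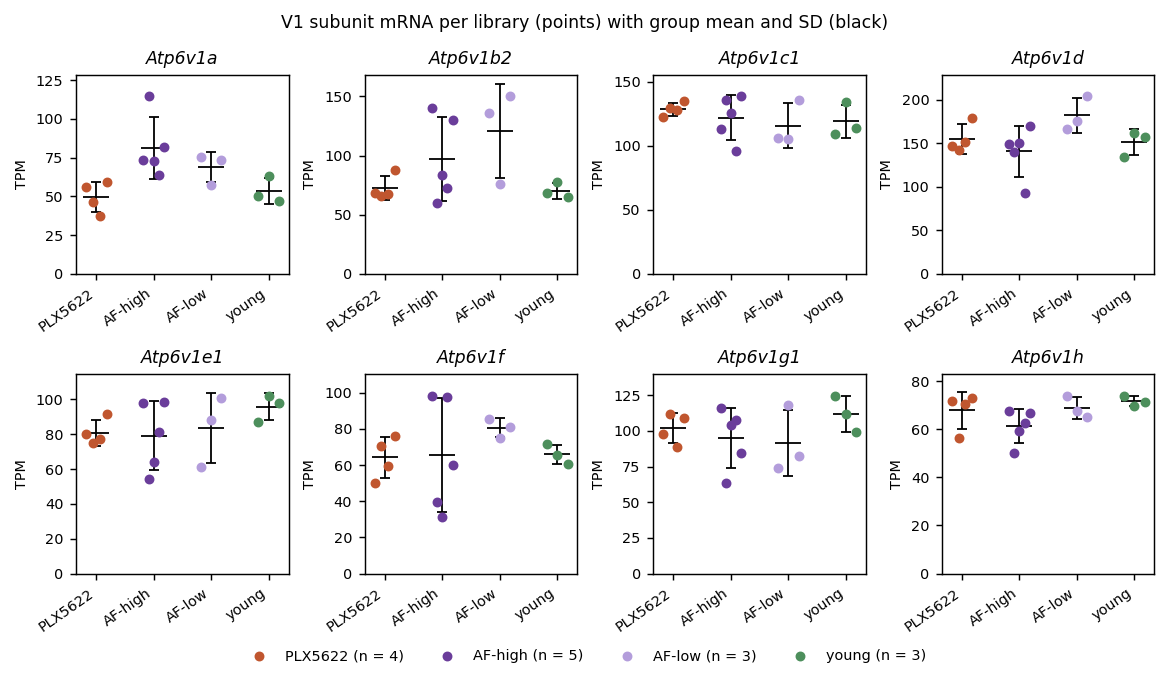
TPM of each V1 subunit gene in each library (points; y axes start at 0), by group, with the group mean and SD in black. The 5 AF-high libraries lie above all PLX5622 and all young libraries for Atp6v1a, and AF-high libraries spread from 31.51 to 98.37 TPM for Atp6v1f.

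The ATP-splitting head is built of Atp6v1a and Atp6v1b2. Atp6v1a (chromosome 16, 44085402 to 44139705, minus strand, GRCm38; 15 exons in its longest coding transcript) was at 55.92, 46.46, 37.22 and 58.96 TPM in PLX5622 libraries 1 to 4. It was at 73.17, 114.8, 72.47, 63.78 and 81.55 TPM in AF-high 1 to 5, at 75.28, 57.56 and 73.62 TPM in AF-low 1 to 3 and at 50.02, 62.94 and 47.23 TPM in young 1 to 3. Every AF-high library lay above every PLX5622 and every young library, by a margin under 1 TPM at its narrowest (63.78 TPM in AF-high 4 against 62.94 TPM in young 2), while AF-low 2 overlapped PLX5622 and young. Group means were 49.64 ± 9.843 TPM in PLX5622, 81.16 ± 19.85 in AF-high, 68.82 ± 9.788 in AF-low and 53.4 ± 8.382 in young microglia (SD).

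In log2(TPM + 1), Atp6v1a differed between AF-high and young by 0.58 ± 0.20 (95% interval 0.15 to 1, adjusted p = 0.3) and between PLX5622 and AF-low by -0.48 ± 0.21 (-0.92 to -0.03, adjusted p = 0.313). Neither passed the test, nor did PLX5622 against AF-high (-0.69, interval -1.08 to -0.3). PLX5622 and young differed by -0.11 ± 0.21 (-0.55 to 0.33, adjusted p = 0.98), an interval that also holds the -0.48 seen against AF-low. AF-high 2, with the highest level of all, was 1 of the 2 libraries rich in mitochondrial transcripts. Without AF-high 2 and 3, a choice made after seeing the data, Atp6v1a differed between PLX5622 and AF-high by -0.56, and the adjusted p over all alternatives tried ran from 0.0524 to 0.3.

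Atp6v1b2, the B subunit (chromosome 8, 69088646 to 69113711, plus strand), fell into low and high libraries among the gated old cells. It was at 68.09, 65.98, 67.42 and 87.41 TPM in PLX5622 libraries 1 to 4, at 139.9, 59.96, 83.29, 72.27 and 129.7 in AF-high 1 to 5, at 135.6, 75.74 and 150.5 in AF-low 1 to 3 and at 68.02, 77.3 and 64.93 in young 1 to 3. AF-high 1 and 5 and AF-low 1 and 3 were above every other library, AF-high 2 was the lowest of all 15, and the other 3 gated old libraries lay within the span of the PLX5622 and young ones. The difference in log2(TPM + 1) was -0.68 ± 0.28 for PLX5622 against AF-low (adjusted p = 0.288) and 0.72 ± 0.30 for AF-low against young (adjusted p = 0.355), with overlap in both.

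Summed over genes, markers of border-associated macrophages, which line brain vessels and meninges, moved in part with Atp6v1b2. This relation was looked for after the Atp6v1b2 values were seen. All 8 such markers were present, the highest being Dab2 and Pf4, and their summed level was between 69.38 and 99.11 TPM in PLX5622, 150.1 and 277.4 in AF-high, 258.8 and 412.1 in AF-low, and 110.3 and 135.5 in young libraries. AF-high 1 and 5, high for Atp6v1b2, had 277.4 and 253.2 TPM, against 150.1, 161.4 and 165.7 TPM in AF-high 2, 3 and 4. AF-low 1 and 3 had 412.1 and 314.1 TPM, against 258.8 TPM in AF-low 2, whose Atp6v1b2 was low. The markers did not all range alike. Within AF-high, Dab2 ran from 62.96 to 170.3 TPM and Pf4 from 12.33 to 56.64. Mrc1 ran only from 21.38 to 25.83 TPM there, Cd163 from 2.414 to 4.263 and F13a1 from 5.293 to 8.062. The range was 1.619 to 11.61 TPM for Lyve1, 5.14 to 9.403 for Cbr2 and 3.915 to 17.08 for Ms4a7. The marker Mrc1, a mannose receptor, was lower in PLX5622, with 8.752 ± 2.328 TPM against 23.27 ± 1.605 TPM in AF-high (adjusted p = 0.00603) and 32.2 ± 3.602 TPM in AF-low (adjusted p = 0.00071). Cd163, a scavenger receptor, and F13a1, a coagulation factor subunit, were lower in PLX5622 than in AF-low. Cd163 was at 1.265 ± 0.8256 TPM in PLX5622 and 6.549 ± 0.5667 in AF-low (adjusted p = 0.02). F13a1 was at 4.541 ± 0.8261 TPM in PLX5622 and 13.61 ± 4.716 in AF-low (adjusted p = 0.047). Against young, the log2 differences of PLX5622 were -0.98 for Mrc1, -0.75 for Cd163 and -0.5 for F13a1. These did not pass the test (adjusted p = 0.0641, 0.695 and 0.961). The part of these markers in the levels of Atp6v1b2 was not tested, and a smaller share of such cells cannot be told apart from less of their RNA per cell. The Atp6v1b2 gene overlaps Slc18a1 on the other strand, by whole gene spans with introns included. Shared exon sequence was not looked for and the strand setting of the quantification is unstated. Whether reads of such partners entered the values is therefore unknown.

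**Figure D2:**
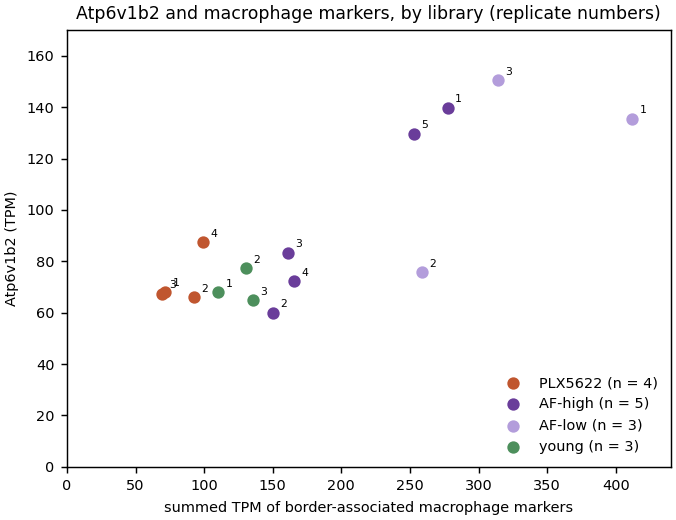
Atp6v1b2 (y axis, TPM) against the summed TPM of 8 markers of border-associated macrophages (x axis), 1 point per library, numbered by replicate. The 4 libraries above 129 TPM of Atp6v1b2 are AF-high 1 and 5 and AF-low 1 and 3, with marker sums of 253.2 to 412.1 TPM, and AF-low 2 has 258.8 TPM of markers at 75.74 TPM of Atp6v1b2.

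The central rotor is built of Atp6v1d and Atp6v1f. Atp6v1d (chromosome 12, 78840725 to 78861638, minus strand) was at 146.7, 142, 151.1 and 179.5 TPM in PLX5622, at 149.4, 139.6, 150.6, 92.55 and 170.3 TPM in AF-high, at 166.6, 175.1 and 204.4 TPM in AF-low and at 134, 162.1 and 157.5 TPM in young libraries. The 3 AF-low libraries lay above all 3 young ones and, with 166.6 TPM against 170.3 TPM in AF-high 5, narrowly overlapped the AF-high group. AF-high against AF-low gave -0.39 ± 0.17 on the log2(TPM + 1) scale (adjusted p = 0.571), and AF-low against young 0.27 ± 0.19 (adjusted p = 0.609).

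Atp6v1f (chromosome 6, 29467718 to 29470512, plus strand) had the widest spread of the 8 within groups. It was at 50.18, 70.76, 59.67 and 76.1 TPM in PLX5622, at 98.37, 39.48, 31.51, 97.56 and 60.25 TPM in AF-high, at 85.62, 75.04 and 80.98 TPM in AF-low and at 71.58, 65.31 and 60.66 TPM in young libraries. The AF-high group held both the 2 highest and the 2 lowest libraries of all 15, and the lowest were AF-high 2 and 3, those rich in mitochondrial transcripts. AF-low lay above young without overlap (0.29 ± 0.34 in log2(TPM + 1), adjusted p = 0.792). Between PLX5622 and AF-high the difference was 0.10 ± 0.28 (adjusted p = 0.909), though the mean in TPM was lower in PLX5622 (64.18 against 65.43). It was -0.05 without AF-high 2, -0.12 without AF-high 3 and -0.04 with array weights and all libraries. Without both AF-high 2 and 3, a choice made after seeing the data, it was -0.39. Its direction was thus not settled.

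The outer stalks, which hold the head still while the rotor turns, contain Atp6v1e1 and Atp6v1g1. Atp6v1e1 (chromosome 6, 120794305 to 120822793, minus strand) averaged 80.98 ± 7.496 TPM in PLX5622, 79.18 ± 19.79 in AF-high, 83.48 ± 20.11 in AF-low and 95.85 ± 7.81 in young libraries. Atp6v1g1 (chromosome 4, 63544772 to 63550750, plus strand) averaged 101.9 ± 10.47 TPM in PLX5622, 95.17 ± 21.12 in AF-high, 91.64 ± 23.2 in AF-low and 111.9 ± 12.69 in young libraries. For both, every pair of groups overlapped, and the largest differences in log2(TPM + 1) were -0.31 ± 0.20 for Atp6v1e1 in AF-high against young (adjusted p = 0.613) and -0.31 ± 0.22 for Atp6v1g1 in AF-low against young (adjusted p = 0.602). AF-high 2 was the lowest of the 15 libraries for each, at 54.38 and 63.73 TPM. The Atp6v1e1 gene overlaps Slc25a18 on the other strand.

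Atp6v1c1 and Atp6v1h join and regulate the sectors: the C subunit leaves the complex when V1 comes off V0, and the H subunit is known to keep free V1 from splitting ATP. Atp6v1c1 (chromosome 15, 38661933 to 38692446, plus strand) averaged 128.7 ± 5.082 TPM in PLX5622, 121.8 ± 17.58 in AF-high, 115.6 ± 17.59 in AF-low and 119 ± 13.18 in young libraries. Its differences in log2(TPM + 1) ran from -0.05 to 0.16, and the 95% intervals over the 6 comparisons stayed between -0.38 and 0.47. Atp6v1h (chromosome 1, 5070018 to 5162529, plus strand) was at 71.87, 56.5, 70.28 and 72.8 TPM in PLX5622, at 67.49, 50.14, 59.45, 62.41 and 66.67 TPM in AF-high, at 73.95, 67.48 and 65.14 TPM in AF-low and at 73.79, 69.72 and 71.51 TPM in young libraries. All AF-high libraries lay below all young ones, a difference of -0.23 ± 0.13 (adjusted p = 0.547), and the intervals of Atp6v1h stayed between -0.51 and 0.4. These 2 genes were the steadiest within groups, at the 7.681 and 2.77 percentiles of the within-group SD over all genes tested. The Atp6v1h gene overlaps Rgs20 on the other strand.

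Comparison by comparison, PLX5622 against AF-high gave 0 of 8 V1 genes called, where 0.63% of all genes were called. At an unadjusted p under 0.05 there was 1 V1 gene, Atp6v1a, against 15.3% of all genes, and Atp6v1a was also the 1 gene whose groups did not overlap, against 6.55% of all and 4.18% lower without overlap. The median log2 difference of the 8 was 0.09 and that of all genes -0.02. PLX5622 against AF-low gave 0 of 8 called (0.144% of all genes), 2 at an unadjusted p under 0.05, Atp6v1a and Atp6v1b2 (14.3% of all), and 0 without overlap (16.2% of all), with a median of -0.13 against -0.05. PLX5622 against young gave 0 of 8 called (0.0911% of all genes), 0 at an unadjusted p under 0.05 (5.23%) and 0 without overlap (16%), with a median of -0.07 against -0.11 for all genes.

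AF-high against AF-low, which asks what goes with autofluorescence at 1 age, gave 0 of 8 called, as over all genes (0%). Atp6v1d alone had an unadjusted p under 0.05 (8.21% of all genes), 0 of 8 were without overlap (2.76% of all), and the median was -0.13 against -0.04. AF-high against young gave 0 of 8 called (0% of all genes), 1 at an unadjusted p under 0.05, Atp6v1a (11% of all), and 2 without overlap, Atp6v1a above (2.63% of all genes) and Atp6v1h below (5.15%; 7.78% in either direction), with a median of -0.14 against -0.08. AF-low against young gave 0 of 8 called (0.0455% of all genes), 1 at an unadjusted p under 0.05, Atp6v1b2 (11.8% of all), and 2 without overlap, Atp6v1d and Atp6v1f, both above (8.25% of all genes; 19.3% in either direction), with a median of 0.11 against -0.04. Comparisons that share a group share its libraries and are not independent of each other. Counts of 0 to 2 among 8 genes were not tested against these shares of all genes, and 8 genes are too few for a close comparison.

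**Figure D3:**
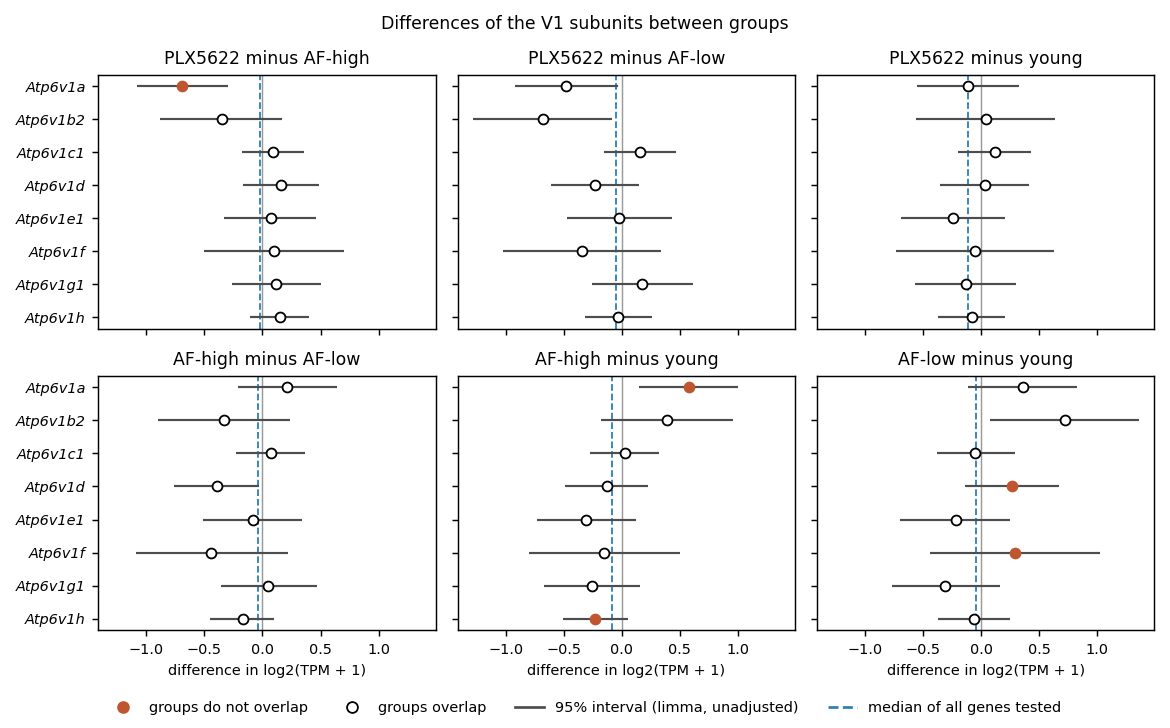
Difference in log2(TPM + 1) of each V1 gene (points) with its unadjusted 95% interval from limma, in the 6 comparisons; filled points mark groups that do not overlap, and the dashed line is the median of all 13175 genes. For PLX5622 minus AF-high the Atp6v1a interval runs from -1.08 to -0.3, while the intervals of the other 7 genes include 0.

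The 8 transcripts did not vary as 1 block from library to library. After group means were removed, Pearson's r over the 15 libraries had a median of 0.29 over the 28 pairs of genes, was above 0 in 19 and ran from -0.55 to 0.81. The libraries share their groups and preparation, so these r values are descriptions. Atp6v1c1 and Atp6v1d went together most closely (0.81), followed by Atp6v1a with Atp6v1c1 (0.58) and Atp6v1b2 with both Atp6v1e1 and Atp6v1h (0.57 each). Atp6v1a ran against Atp6v1g1 (-0.55) and Atp6v1c1 against Atp6v1g1 (-0.46) and Atp6v1f (-0.45).

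Several libraries stood far from their group means. In AF-high 2, Atp6v1a was 0.53 above its group mean in log2(TPM + 1), while Atp6v1b2, Atp6v1f, Atp6v1g1 and Atp6v1e1 were at -0.61, -0.57, -0.54 and -0.50. In AF-high 3 Atp6v1f stood at -0.89, and in AF-high 4 Atp6v1d at -0.57 and Atp6v1f at 0.71. The ratio of Atp6v1a to Atp6v1f in TPM was accordingly 2.909 and 2.3 in AF-high 2 and 3, against 0.6237 to 1.353 in the other 13 libraries. The longest coding transcript was 806 bases for Atp6v1f, 1135 for Atp6v1g1, 1312 for Atp6v1e1 and 2825 for Atp6v1b2, and 4234 for Atp6v1a. Of the other 3 genes, Atp6v1h (2049 bases) was at -0.28 in AF-high 2, Atp6v1c1 (2071 bases) at 0.16 and Atp6v1d (3667 bases) at 0.02. The lowest deviation in AF-high 2, -0.61, was that of Atp6v1b2, with 2825 bases. The ratio of the A to the B subunit, Atp6v1a to Atp6v1b2, was 1.915 in AF-high 2, against a mean of 0.688 ± 0.1106 in PLX5622, 0.6014 ± 0.1412 in AF-low and 0.759 ± 0.048 in young libraries (SD). The part of mitochondrial content, transcript length or RNA quality in these deviations was not tested.

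**Figure D4:**
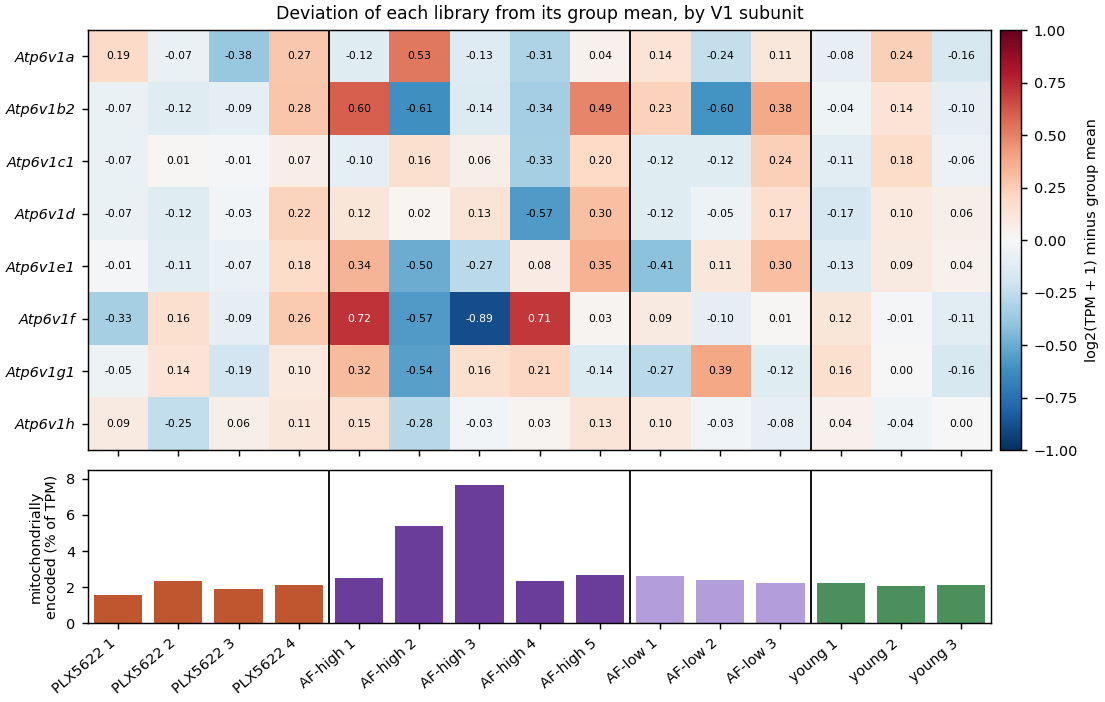
Upper panel: deviation of each library from its group mean in log2(TPM + 1), for each V1 gene (colour and number). Lower panel: share of TPM in mitochondrially encoded transcripts. AF-high 2 and 3 have the highest shares, 5.376% and 7.657%, and negative deviations of Atp6v1f, -0.57 and -0.89.

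**Figure D5:**
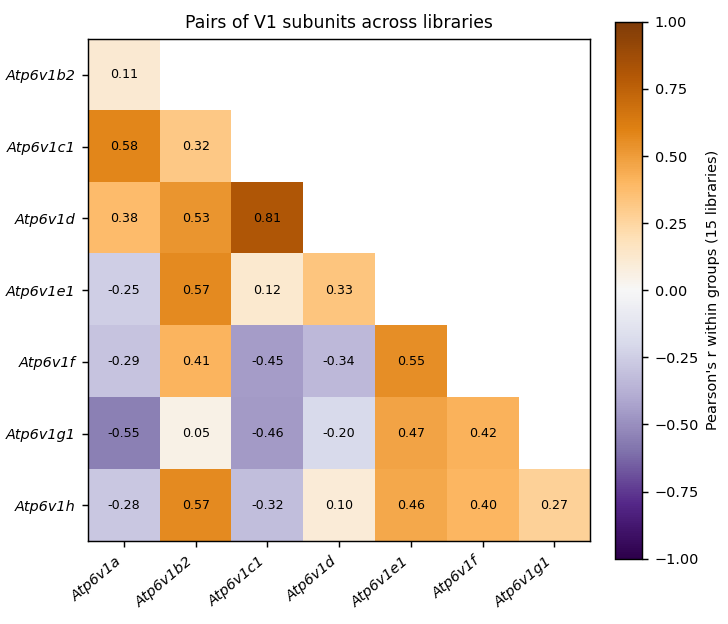
Pearson's r between V1 genes over 15 libraries after group means were removed, for all 28 pairs. Values run from -0.55 (Atp6v1a with Atp6v1g1) to 0.81 (Atp6v1c1 with Atp6v1d), and 19 are above 0.

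Summed over the 8 genes, V1 transcripts came to 720.2 ± 60.55 TPM in PLX5622, 741.5 ± 93.57 in AF-high, 811.6 ± 71.86 in AF-low and 739 ± 40.17 in young libraries. The 8 V0 genes with a line summed to 2019 ± 112.4 TPM in PLX5622, 2096 ± 156.3 in AF-high, 2298 ± 103 in AF-low and 2137 ± 220.4 in young libraries. The ratio of the V1 to the V0 sum was 0.3567 ± 0.02332 in PLX5622, 0.356 ± 0.05557 in AF-high, 0.3528 ± 0.017 in AF-low and 0.3478 ± 0.03112 in young libraries, so its means lay closer together than its libraries did within any group. Of the tissue-restricted V1 paralogs, 1 of 5 was in the table, the G isoform Atp6v1g2, which is best known from neurons, at a mean of 4.897 TPM over the 15 libraries against 99.61 TPM for Atp6v1g1.

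The genes whose level over the 15 libraries was most like the mean log2(TPM + 1) of the 8 were sought among 9128 genes with a mean of at least 5 TPM. They were Rnf19a, an E3 ubiquitin ligase (Pearson's r = 0.91), Cnpy3, a chaperone of Toll-like receptors (0.9), the tubulin gene Tubb2a (0.9), the cyclin gene Ccnt2 (0.89), Wdr70 (0.88) and the complement receptor gene C3ar1 (0.87). After group means were removed, r was 0.88 to 0.93 for these 6. They were picked for the highest r among many genes, and the second r uses the same 15 libraries. It is therefore no separate evidence, and how high r would run by chance was not tested.

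Other genes that build or serve the pump gave 0 calls in all 6 comparisons. Among the 8 V0 genes (of 10 listed), 0 were called in any comparison, and their medians in log2 ran from -0.2 for AF-high against AF-low to 0.07 for AF-low against young. The proteolipid gene Atp6v0c, whose product forms the proton-carrying ring, was the highest at 749.2 ± 56.55 TPM in PLX5622, 817.4 ± 97.19 in AF-high, 854.8 ± 109.2 in AF-low and 763.5 ± 79.92 in young libraries. The second ring gene, Atp6v0b, was at 369.5 ± 44.72 TPM in PLX5622, 360.2 ± 53.41 in AF-high, 414.8 ± 25.12 in AF-low and 399.8 ± 25.86 in young libraries. Atp6v0d1, which couples the rotor to that ring and was singled out after its values were seen, was between 75.87 and 110.1 TPM in PLX5622, 73.94 and 139.3 in AF-high, 144.3 and 153.2 in AF-low, and 77.14 and 123.3 in young libraries. All AF-low libraries lay above all others for it, and the difference of PLX5622 from AF-low was -0.70 ± 0.20 in log2(TPM + 1) (adjusted p = 0.149). The median within-group SD in log2 was 0.28 for the V1, 0.17 for the V0 and 0.34 for all genes.

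The accessory subunits (3 of 3 present) had 0 calls. Atp6ap1 averaged 119.7 ± 13.97 TPM in PLX5622, 141.2 ± 20.14 in AF-high, 125.9 ± 9.557 in AF-low and 132.5 ± 9.196 in young libraries. Rnasek, a pump-associated membrane protein, averaged 153.5 ± 29.62 TPM in PLX5622, 193.5 ± 32.59 in AF-high, 170.5 ± 26.97 in AF-low and 165 ± 13.97 in young libraries. The assembly factors (6 of 7 present) had 0 calls. Dmxl1, part of the complex that puts V1 back on V0, was at 325.8 ± 150.9 TPM in PLX5622, 332.7 ± 266.4 in AF-high, 367 ± 181.5 in AF-low and 193.6 ± 53.61 in young libraries. Its partner Rogdi was at 76.3 ± 3.371 TPM in PLX5622, 98.92 ± 26.62 in AF-high, 71.89 ± 5.393 in AF-low and 92.8 ± 0.9607 in young libraries. Among TLDc-domain proteins that bind V1 (4 of 5 present, 0 calls), Oxr1 averaged 58.75 TPM and Tldc1 8.416 TPM over the 15 libraries.

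Regulators of the lysosome also gave 0 calls in all 6 comparisons: MiT transcription factors (3 of 4 present), Ragulator and Rag GTPase genes of mTORC1 signalling (12 of 13) and lysosomal ion channels and exchangers (13 of 13). Tfe3 was the highest MiT factor at 83.65 ± 10.44 TPM in PLX5622, 118.9 ± 29.3 in AF-high, 121.1 ± 7.1 in AF-low and 103.2 ± 18.28 in young libraries (PLX5622 against AF-high -0.48 ± 0.17 in log2(TPM + 1), adjusted p = 0.202), followed by Mitf at 26.82 TPM over all libraries. Fnip1 and Lamtor1 led the Ragulator list at 73.98 and 59.25 TPM. Of the channels and exchangers, Slc9a9, a sodium/proton exchanger of endosomes, averaged 90.78 TPM. Tmem9b, a lysosomal membrane protein gene, was between 37.78 and 43.96 TPM in PLX5622, 46.77 and 60.33 in AF-high, 45.83 and 56.75 in AF-low, and 41.3 and 43.54 in young libraries, and PLX5622 differed from AF-high by -0.41 ± 0.11 in log2(TPM + 1) (adjusted p = 0.0946). The calcium and sodium channel gene Tpcn1, singled out after its values were seen, was at 19.26 to 24.18 TPM in PLX5622, below the 30.49 to 52.68 in AF-high, the 26.69 to 30.34 in AF-low and the 25.69 to 29.66 in young libraries (PLX5622 against AF-high -0.68 ± 0.16, adjusted p = 0.0625).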

How the data were processed

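RNA from 15 sorted microglial libraries was measured by sequencing after cDNA amplification from low input, per the labels. The authors deposited 1 table of TPM; per the submitters' processing notes it rests on Salmon 1.0.0, FastQC 0.11.8 and the mouse build GRCm38 (mm10), and DESeq2 is named without a version. The table is named as filtered and holds 0 values equal to 0; its filter, annotation, strand setting and depth were not given in the sources used here. Library totals were 956489 to 963145 TPM, and 19 symbols read as dates. Columns were matched to libraries by the labels' description. Values were taken as log2(TPM + 1) for 13175 genes with at least 1 TPM in at least 3 libraries; differences on this scale understate changes of low genes. All 15 libraries entered 1 limma 3.58.1 fit (R 4.3.3, eBayes with trend, 11 residual degrees of freedom), two-sided, with Benjamini-Hochberg adjustment over all genes within each of 6 comparisons and a threshold of 0.05. The fit takes 1 spread per gene for all groups, though the gated old libraries scattered more. Standard errors may thus be too wide between PLX5622 and young and too narrow between AF-high and AF-low. The fit was tested on simulated data with the same spread in every group, which does not cover this inequality. The members, gene lists and alternatives were chosen with earlier results of these data known. All 8 members are named. Of each other pathway list, genes that passed or else the 2 with the highest mean TPM are named, others being marked as chosen after their values were seen. Coordinates are from GENCODE M21 (GRCm38). Figures were drawn with matplotlib 3.10.9.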

Additional observations from a re-analysis of the deposited data

Results flagged for a closer look

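Among 16 groups of 4 or 5 libraries of V1 genes, 2 held a library far from the rest of its group, where chance flags about 5% of groups. Atp6v1b2 was at 87.41 TPM in PLX5622 4, against 65.98 to 68.09 TPM in the other 3 PLX5622 libraries. Atp6v1h was at 56.5 TPM in PLX5622 2, against 70.28 to 72.8 TPM in the others.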

How the results depend on the processing

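No V1 gene was called under any alternative tried (0 in each of the 6 comparisons): other pseudocounts, filters, scalings, weights and variance models, only the compared groups, and libraries left out singly or together. For Atp6v1a in PLX5622 against AF-high the log2 difference stayed between -0.78 and -0.56 without single libraries (adjusted p = 0.0566 to 0.3) and between -0.7 and -0.56 otherwise (0.0524 with array weights to 0.21). For AF-high against young it was 0.44 to 0.74 over these alternatives (adjusted p = 0.168 to 0.999). The median of the 8 genes moved by more than the spread between libraries in 4 cases. For PLX5622 against AF-low it was 0.06 under quantile normalization, and for PLX5622 against AF-high -0.1 without AF-high 2 and 3, with or without AF-low 1. For AF-high against AF-low it was 0.02 without AF-high 2 and 3, an alternative added after seeing the data; the cause was not tested. Of 928 gene-level repeats, 72 changed the sign of an uncalled difference. Size factors shifted the median of all genes for PLX5622 against young from -0.11 to -0.01. With only the compared groups in the fit, 59 of all genes rather than 12 were called for PLX5622 against young. For PLX5622 against AF-high it was 7 rather than 83. Deviations of AF-high and AF-low libraries with the same replicate number had r of 0.05, -0.03 and -0.08 for numbers 1 to 3. Between libraries of unlike number, r ran from -0.18 to 0.17. With group means removed from only 5 and 3 libraries, these values cannot tell whether both gates came from the same mice. The labels do not state it either, and the main fit treated all libraries as unpaired. A further fit took the replicate number as a block across all groups. It thus also joined libraries of treated and untreated or old and young mice, and is no check on pairing. With this block Atp6v1a in PLX5622 against AF-high had -0.68 (adjusted p = 0.21) and 0 V1 genes were called. Of all genes, 0 rather than 83 were called in that comparison. TPM keep no read depth, so counting error is unknown.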
